A study of Mus musculus with 42 samples.

Results

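Of 42 single cell profiles from the developing retina of CD-1 mice, 8 had a Sox2 signal under 1000 and are called cells without Sox2 here. They were set against the 34 profiles with a Sox2 signal of 1000 or more, the cells with Sox2. The cells without Sox2 came from E12.5 (1 of 11 cells), E13.5 (2 of 4), E16.5 (4 of 11) and P0, the day of birth (1 of 13), whereas both cells of E14.5 and the single cell of E15.5 had Sox2. All animals were untreated mice of 1 outbred strain, with no transgene or mutation named. Cells were picked by capillary from dissociated retinas, with no sort or marker. Each was lysed alone, its cDNA was amplified by 35 cycles of PCR, and the product was measured on 1 Affymetrix mouse 430 2.0 array. A gene was called present in a cell where the highest signal of its probe sets reached 1000, on the linear MAS 5.0 scale. The study kept these 42 cells because of genes that go with Ccnd1, Fgf15, Sfrp2 and Crym, so that the presence of progenitor genes in them was in part fixed by that choice. It classed 36 of them as retinal progenitor cells (RPCs) and 6 as transitional cells, whose profiles also held genes of neurons.

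Sox2 is a transcription factor of the HMG box family that retinal and neural progenitors use to remain progenitors, and in mice its loss from the retina abolishes the capacity of RPCs to divide and to form neurons. As an RPC leaves the cell cycle, Sox2 is lost in most newborn neurons, but it is kept in Müller glia and in some amacrine cells. Cells that become neurons switch on factors of the basic helix-loop-helix (bHLH) class, antiproliferative genes and then proteins of the neuronal cytoskeleton. The order differs between ganglion cells, amacrine cells and photoreceptors. The study found several bHLH factors, and the antiproliferative gene Btg2, in cycling RPCs as well. These genes alone therefore do not mark a newborn neuron.

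The Sox2 signal, which chose the groups, left a gap between them. In the cells without Sox2 it was 7.59 in E13.5 cell B3, 12.8 in E12.5 cell E5, 13.2 in E16.5 cell D6, 58.7 in E13.5 cell A6, 69.5 in E16.5 cell D5, 98.8 in E16.5 cell E3, 193 in E16.5 cell E5 and 420 in P0 cell C5. In the cells with Sox2 it ranged from 1027 to 25990, with a median of 12562. The cells just above the limit were P0 cell B5 at 1027, E16.5 cell F1 at 1218 and E16.5 cell J4 at 1866. All these values come from the only probe set of Sox2 that was used, and a signal below the limit is no proof that the cell held no Sox2 mRNA. Of the 6 transitional cells, 4 were without Sox2 (66.7%, exact 95% interval 22.3 to 95.7%), against 4 of the 36 other cells (11.1%, 3.11 to 26.1%). Sox2ot, the transcript that surrounds Sox2 in the genome, was likewise below 1000 in all 8 cells without Sox2 (2.08 to 328), and it was present in 8 of 34 cells with Sox2.

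The cells without Sox2 had fewer genes present than the cells with Sox2. They had 1386 to 3554 genes present with a median of 2095.5, against 1691 to 5253 with a median of 3165.5 in the cells with Sox2. The 3 profiles with the fewest genes of all 42 were E16.5 cells D5, E5 and E3, all without Sox2. The highest value, 3554 genes in E13.5 cell A6, was made up largely of faint signals, since 69.6% of its genes present lay below 2000, whereas this share was 8.02 to 30.5% in the other 7 cells and 9.17 to 81.1% in the cells with Sox2. For this reason 2 further readings are given. In the first, the cells without Sox2 were set beside the 8 cells with Sox2 that had at most 2644 genes present, the number in the deepest cell without Sox2 other than A6. These cells of like number of genes (E12.5 cells F2, E3, D5 and F8, E14.5 cell B1, E16.5 cell F5 and P0 cells A8 and C8) had 1691 to 2644 genes, with a median of 2447. E16.5 cells D5, E5 and E3 had fewer genes than all of them, and E13.5 cell A6 had more. The set was not matched by stage, as it holds mostly E12.5 and P0 cells and E16.5 cell F5 alone of its stage. In the second, only the 1386 highest genes of each cell counted as present in that cell, so that all cells had the same number. As 1386 is the number of genes present in E16.5 cell D5, that cell lost none. Cells with more genes present, mostly cells with Sox2, lost their fainter ones, which can move a difference upward. At E16.5, profiles F1, E8, J4, J2 and J1 stood apart in their hybridization control probe sets (departure of 0.644 to 0.667, SD on the log2 scale, against at most 0.197 in all other cells), and all 5 of these cells had Sox2. The level of the control probe sets (geometric mean signal) also differed between arrays. It was 385411 in E13.5 cell A6 and 192417 in E16.5 cell E5, the highest of all 42 cells and 6.35 and 3.17 times the median, whereas the other 6 cells without Sox2 had 34678 to 109794 and the cells with Sox2 15925 to 155670. With all signals of a cell divided by its control level over the median, E13.5 cell A6 had 595 genes present and E16.5 cell E5 had 925. The group medians were then 1746.5 in the cells without Sox2 and 3064.5 in the cells with Sox2, and the Sox2 signal of E16.5 cell F1 (475) and P0 cell A8 (967) also lay below 1000. The 4 E16.5 cells without Sox2 could be set beside only 2 cells with Sox2 of the usual pattern, F4 and F5.

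**Figure D1:**
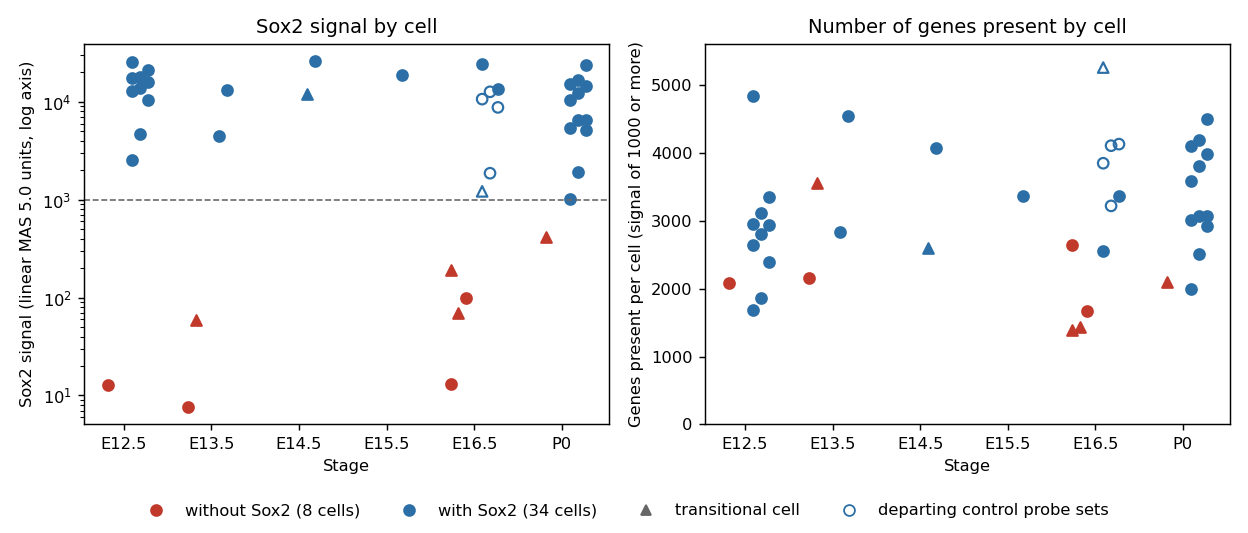
Sox2 signal on a log axis (left) and number of genes present (right) in each of the 42 cells, by stage; each symbol is 1 cell, triangles are transitional cells, open symbols mark departing control probe sets (5 arrays of E16.5), and the dashed line marks 1000. The 8 cells without Sox2 lie between 7.59 and 420 and, apart from E13.5 cell A6, have at most 2644 genes present.

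No label names an animal or litter for any cell, and the groups were chosen on a measured value, so that the values below carry no p-value. A share of cells has an exact interval by the Clopper-Pearson method and a difference has one by the Newcombe method, both at 95%, for counting error alone. Differences are in percentage points, cells without Sox2 minus cells with Sox2. A gene was called higher or lower where the plain difference and the difference weighted by stage were both 40 points or more.

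Across all genes, far more were lower than higher in the cells without Sox2, and the imbalance was smaller where the same number of genes was counted in every cell. Of 8388 genes present in at least 4 cells, 597 were called lower (7.12%), Sox2 among them, and 6 were called higher (0.0715%). The median difference of all compared genes was itself -14.7 points. Without the 6 transitional cells, 787 genes were called lower and 74 higher. With the signals of each cell scaled to equal control levels, 743 were called lower and 0 higher. With the 1386 highest genes of each cell, the median was -2.21 points, and 64 of 4377 genes were called lower (1.46%) and 28 higher (0.64%). With the 2000 highest genes of each cell, 102 of 6164 were lower (1.65%) and 79 higher (1.28%). Of the genes called lower, 48 were called lower both at a signal of 1000 and with the 1386 highest genes, which is 8.04% of the calls at a signal of 1000 and 75% of the calls at equal numbers. Of the genes called higher, 1, Btg2, was called in both of these. Leaving out E16.5 cell D6 lowered the number called higher to 2, and leaving out any of the other cells without Sox2 gave 5 to 9. The 3 settings that bear on stage and array type, plain differences alone, no arrays with departing controls and E16.5 cells alone, gave 743, 496 and 1316 genes lower and 8, 8 and 59 genes higher.

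The genes most widely used to recognize RPCs were still present in most cells without Sox2. Pax6, the paired homeobox factor of the eye field, was present in 8 of 8 cells without Sox2 and in 33 of 34 cells with Sox2, with signals of 2366 to 45780 (median 17600) and of 972 to 45144 (median 10368). Ccnd1, the G1 cyclin that most RPCs transcribe, was present in 7 of 8 cells without Sox2 and in 34 of 34 cells with Sox2. The exception was E12.5 cell E5, with a Ccnd1 signal of 191, while the other 7 cells ranged up to 208860. Neither difference (2.94 points for Pax6, interval -29.6 to 14.9, and -12.5 points for Ccnd1, interval -47.1 to 1.93) was called.

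Other progenitor genes were present in a smaller share of the cells without Sox2. Lhx2, a LIM homeobox factor that RPCs need, had signals of 15184, 12.6, 21022, 120, 18.3, 55017, 239 and 11308 in the 8 cells, in the order in which their Sox2 signals are given above. It was thus present in 4 of 8 cells without Sox2 (50.0%, 15.7 to 84.3%) and in 30 of 34 cells with Sox2 (88.2%, 72.5 to 96.7%), a difference of -38.2 points that did not reach the limit for a call. Fgf15, a secreted growth factor of RPCs, was present in 4 of 8 cells without Sox2 and in 28 of 34 cells with Sox2 (-32.4 points, interval -62.3 to 0.247). The 2 genes were above 1000 together in E16.5 cells D6 and E3 and in P0 cell C5, each also with Pax6 and Ccnd1. All 4 of these genes were therefore present in 3 of 8 cells without Sox2, against 25 of 34 cells with Sox2.

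Notch1, the receptor through which neighboring cells hold an RPC back from differentiation, was called lower. Its signal was 3192 in E13.5 cell B3, 23585 in E12.5 cell E5 and 45749 in E16.5 cell E3, and at most 481 in the other 5 cells without Sox2. It was present in 30 of 34 cells with Sox2, with a median signal of 4160. The groups overlapped, and the highest Notch1 signal of all 42 cells was that of E16.5 cell E3, without Sox2 (rank 2 with signals scaled to equal control levels). The difference was -50.7 points (interval -75.6 to -15.5) and -42.1 points with stage weights. At equal numbers of genes it was -25.0 and -13.9 points, and in the cells with Sox2 of like number of genes Notch1 was present in 5 of 8. Over the Notch pathway list (ligands, receptors, processing enzymes and targets), 2 of 23 compared genes were called lower, Notch1 and Adam10, the protease that cleaves Notch receptors at the cell surface, and 0 higher. This is 8.70%, near the 7.12% of all genes. At equal numbers 0 of 13 were lower and 1 higher, beside 1.46% and 0.64% of all genes. The median difference of the list, -8.09 points, was smaller in size than that of all genes. The Notch effectors Hes5 and Hes1 were present in 3 and 1 of 8 cells without Sox2 and in 13 and 7 of 34 cells with Sox2.

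Cdh2, N-cadherin of the neuroepithelium, was present in E16.5 cells D5, E3 and E5 and in no other cell without Sox2 (3 of 8), against 33 of 34 cells with Sox2. The difference was -59.6 points (interval -83.5 to -25.5), -65.6 points with stage weights and -33.1 points at equal numbers of genes, and Cdh2 was present in 7 of the 8 cells with Sox2 of like number of genes. Over the list of progenitor factors, 4 of 25 compared genes were called lower (16%, beside 7.12% of all genes), namely Notch1, the homeobox factor Six6, the T-box factor Tbx2 and Mab21l2, and 0 higher. The share of the 26 measured list genes present in a cell was 19.2 to 42.3% (median 30.8%) in the cells without Sox2, 30.8 to 53.8% (median 40.4%) in the cells with Sox2 of like number of genes and 26.9 to 73.1% (median 50.0%) in all cells with Sox2. At equal numbers of genes the medians were 21.2% in the cells without Sox2 and 23.1% in the cells with Sox2, and 0 of 16 compared genes were called.

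Other members of the Sox family differed in whether they were present in the cells without Sox2. Sox4 and Sox11, factors of the SoxC group that are known from neurons in the course of differentiation, had high signals in most cells without Sox2. Sox4 was present in 7 of 8 cells without Sox2 (491 to 65060, median 11388) and in 24 of 34 cells with Sox2 (109 to 37668, median 4013). Sox11 was present in 6 of 8 cells without Sox2 and in 29 of 34 cells with Sox2. Sox9, a SoxE factor of RPCs and Müller glia, was present in E16.5 cells D6 and E3 and P0 cell C5 (3 of 8 cells), against 13 of 34. Sox1 and Sox3, which share the SoxB1 group with Sox2, were present in 0 of 8 cells without Sox2 and in only 2 and 4 of 34 cells with Sox2. A count of 0 in 8 cells allows a share of up to 36.9%. Sox8, of the SoxE group, was present in 0 of 8 cells without Sox2 and in 14 of 34 cells with Sox2, with differences of -41.2 points plainly, -38.3 points with stage weights and -8.82 points at equal numbers of genes. Sox13 was present in 1 of 8 and 14 of 34 cells (-28.7 points). Of 8 compared members of the family, none was called in either direction. Among partners and targets of Sox2 named in the literature on neural progenitors, 2 of 17 compared genes were called lower (11.8%, beside 7.12% of all genes, and 0 of 13 at equal numbers), Notch1 and Gli2, an effector of Hedgehog signaling (present in 0 of 8 and 14 of 34 cells), and the Gli2 difference was -5.88 points at equal numbers of genes.

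Genes of DNA replication were below the limit in more of the cells without Sox2 than of the others, also where the number of genes was held equal. Of 56 compared genes of the G1 and S phase list, 11 were called lower (19.6%, beside 7.12% of all genes) and 0 higher, and at equal numbers 3 of 45 were called lower (6.67%, beside 1.46%). These 3 genes were Mcm3, a subunit of the replicative helicase, Rpa1, a subunit of the protein that covers single-stranded DNA, and Pcna, the sliding clamp of the DNA polymerases. Mcm3 was present in 1 of 8 cells without Sox2, E13.5 cell B3 at 2511, and in 26 of 34 cells with Sox2, with a median of 4760 and a highest value of 32024. The difference was -64.0 points (interval -79.1 to -25.7), and -52.9 points at equal numbers. Rpa1 was present only in the same cell among those without Sox2, at 19217, and in 27 of 34 cells with Sox2. Pcna had signals of 45285 in E13.5 cell B3, 29040 in E16.5 cell D6, 90325 in E16.5 cell E3 and 81865 in P0 cell C5, and of 23.9 to 922 in the other 4 cells without Sox2. It was present in 33 of 34 cells with Sox2 (457 to 122562, median 28841), so that the 4 positive cells lay within the range of the cells with Sox2 and the other 4 near or below its lower end. In the cells with Sox2 of like number of genes, Mcm3, Rpa1 and Pcna were present in 5, 5 and 7 of 8. The share of the 57 measured list genes present was 14.0 to 54.4% (median 26.3%) in the cells without Sox2, 29.8 to 52.6% (median 42.1%) in the cells with Sox2 of like number of genes and 21.1 to 89.5% (median 55.3%) in all cells with Sox2. The difference of the medians, -28.9 points, was -14.0 points without the 6 transitional cells, which hold 4 of the 8 cells without Sox2.

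Genes of G2 and mitosis divided the cells without Sox2. The share of the 54 measured list genes was 63.0% in E13.5 cell B3 and 64.8% in P0 cell C5, near the median of 64.8% of the cells with Sox2, whereas it was 14.8 to 31.5% in the other 6. The cells with Sox2 ranged from 3.70 to 92.6%, and 3 of them lay below every cell without Sox2. The cells with Sox2 of like number of genes had 18.5 to 87.0% (median 57.4%). The difference of the medians was -41.7 points, and the stage-weighted difference of the means was -18.8 points. Mki67, the proliferation antigen, was present in E16.5 cells D5 and E3 and P0 cell C5, at 30051, 60462 and 50407, and was at most 642 in the other 5 cells without Sox2. With 3 of 8 cells against 30 of 34 cells with Sox2 it was called lower (-50.7 points, interval -75.6 to -15.5), but at equal numbers of genes, with -41.9 points plainly and -36.9 points with stage weights, it was not called. Ttk, a kinase of the spindle checkpoint, was present in 0 of 8 and 18 of 34 cells, and Bub3, of the same checkpoint, in 3 of 8 and 30 of 34. Top2a, the topoisomerase of chromosome segregation, was present in 5 of 8 and 30 of 34 cells, and Ccna2, the cyclin of S phase and G2, in 7 of 8 and 26 of 34. In all, 6 of 53 compared genes of the list were called lower (11.3%, beside 7.12% of all genes) and 0 higher. At equal numbers 1 of 48 was lower, beside 1.46% of all genes. E12.5 cell E5 had none of Ccnd1, Pcna, Mki67, Top2a, Cdk1 and Ccna2 above 1000, while E16.5 cell E3 and P0 cell C5 had all 6.

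**Figure D2:**
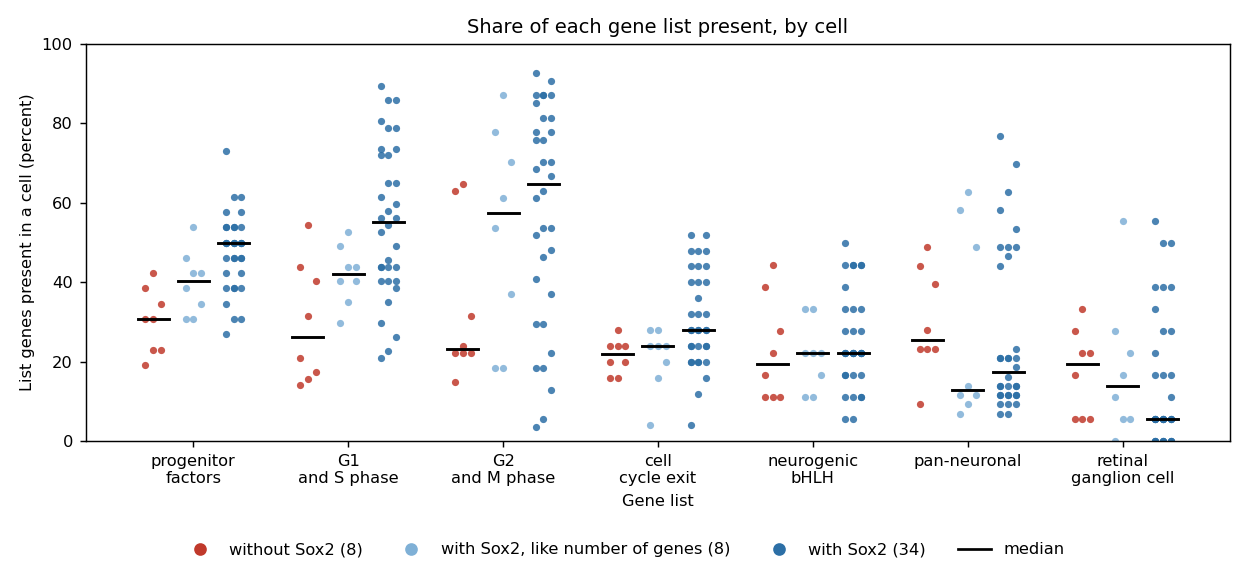
Percent of the measured genes of 7 lists present in each cell, for the 8 cells without Sox2, the 8 cells with Sox2 of like number of genes and all 34 cells with Sox2; each point is 1 cell and the lines are medians. For the G2 and M phase list 6 cells without Sox2 lie between 14.8 and 31.5% and 2 at 63.0 and 64.8%, and for the pan-neuronal list 7 of 8 lie at 23.3% or more.

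Among genes of cell cycle exit, Btg2 was called higher, an antiproliferative gene that is switched on in neurogenic divisions. Its signals were 12812, 26638, 5607, 865, 25379, 303, 92640 and 18200 in the 8 cells, in the order of the Sox2 signals above, so that it was present in 6 of 8 cells without Sox2 (75.0%, 34.9 to 96.8%). In the cells with Sox2 it was present in 11 of 34 (32.4%, 17.4 to 50.5%), with a lowest value of 10.9, a median of 419 and a highest of 18229. Of the 6 positive cells without Sox2, 3 lay above every cell with Sox2 in the deposited signals. With signals scaled to equal control levels this no longer held. E16.5 cell E5 was then at rank 2 of 42, behind a cell with Sox2. The difference was 42.6 points (interval 4.66 to 64.9), 40.5 points with stage weights and 41.9 and 48.3 points at equal numbers of genes. Btg2 is also known as an early response gene, and in the cells with Sox2 of like number of genes it was present in 3 of 8. Leaving out any 1 of its 6 positive cells left a difference of 39.1 points, just under the limit for a call, and with signals scaled to equal control levels it was 36.8 points. Gadd45a, a growth arrest gene, was present in 5 of 8 cells without Sox2 and in 11 of 34 cells with Sox2, and in 0 of the 8 cells with Sox2 of like number of genes. Its signals of 37626, 22029, 26761 and 142533 in E12.5 cell E5 and E16.5 cells D6, D5 and E5 exceeded the highest of the cells with Sox2, 13776. It was called higher at equal numbers only (41.9 points, against 30.1 points at a signal of 1000). Cdkn2d, an inhibitor of the G1 kinases, was called lower (0 of 8 and 18 of 34 cells, -52.9 points), but the difference was -17.6 points at equal numbers. Cdkn1b, the inhibitor p27, was present in 5 of 8 and 20 of 34 cells. Of 21 compared genes of the exit list, 8 had a difference above 0 and 13 below. Of the 21, 2 were called lower (9.52%, beside 7.12% of all genes) and 1 higher (beside 0.0715%). At equal numbers 2 of 14 were higher and 0 lower, beside 0.64% and 1.46% of all genes.

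Of the neurogenic bHLH factors, Atoh7, which ganglion cells require, came closest to a call. It had a signal of 25362 in E13.5 cell B3, 18728 in E12.5 cell E5, 1359 in E16.5 cell D6, 1709 in E13.5 cell A6 and 47314 in E16.5 cell E5, and of 84.4 to 774 in the other 3 cells without Sox2. It was present in 8 of 34 cells with Sox2, where its highest signal was 12035. The 3 highest Atoh7 signals of all 42 cells were therefore those of cells without Sox2. The difference was 39.0 points (interval 3.05 to 65.2) and 33.8 points with stage weights, and at equal numbers of genes it was 44.1 and 48.1 points, a call. Neurod1, a bHLH factor of photoreceptors and amacrine cells, was present in 4 of 8 and 12 of 34 cells, and Neurog2, a factor of neurogenic RPCs, in 3 of 8 and 8 of 34. In contrast, Tcf3, the E protein that pairs with such factors, was called lower (1 of 8 and 25 of 34 cells), with a difference of -61.0 points that was -19.9 points at equal numbers. The share of the 18 measured list genes per cell was alike in both groups, 11.1 to 44.4% (median 19.4%) in the cells without Sox2 and 5.56 to 50.0% (median 22.2%) in the cells with Sox2.

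Neuronal genes were not present in fewer of the cells without Sox2, and how far the list as a whole differed depended on the reading. Of 37 compared pan-neuronal genes, 23 had a difference above 0 and 14 below, with a median of 5.15 points beside -14.7 points for all genes, and 0 were called in either direction. The share of the 43 measured genes present was 9.30 to 48.8% (median 25.6%) in the cells without Sox2, 6.98 to 62.8% (median 12.8%) in the cells with Sox2 of like number of genes and 6.98 to 76.7% (median 17.4%) in all cells with Sox2. A total of 5 cells with Sox2 lay above the highest cell without Sox2, and the stage-weighted difference of the means was 0.112 points. At equal numbers of genes the medians were 22.1% in the cells without Sox2 and 6.98% in the cells with Sox2, and the stage-weighted difference of the means was 8.11 points. For the ganglion cell list the medians were 19.4% in the cells without Sox2, 13.9% in the cells with Sox2 of like number of genes and 5.56% in all cells with Sox2, and the stage-weighted difference of the means was -0.179 points, against 6.51 points at equal numbers of genes. The difference of the medians was 13.9 points, and 5.56 points without the transitional cells. Scg3, a secretogranin of secretory granules, had the largest difference of the pan-neuronal list. It was present in 5 of 8 cells without Sox2 and in 8 of 34 cells with Sox2 (39.0 points, interval 3.05 to 65.2), and its positive cells without Sox2 were the 4 of E16.5, with signals of 9106, 22971, 4135 and 66868, and P0 cell C5 at 3571. In the cells with Sox2 its median was 48.4 and its highest signal 110171, in E16.5 cell F1. Dpysl3, a collapsin response mediator of growing axons, was present in 5 of 8 and 10 of 34 cells and was called higher at equal numbers only (41.2 points). Tubb3, the neuronal beta-tubulin, was present in 6 of 8 cells without Sox2 and in 17 of 34 cells with Sox2, with medians of 36966 and 1023. Its difference of 25.0 points was only 7.90 points with stage weights. In E16.5 cells Tubb3 was present in 4 of 4 without Sox2 and in 6 of 7 with Sox2.

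**Figure D3:**
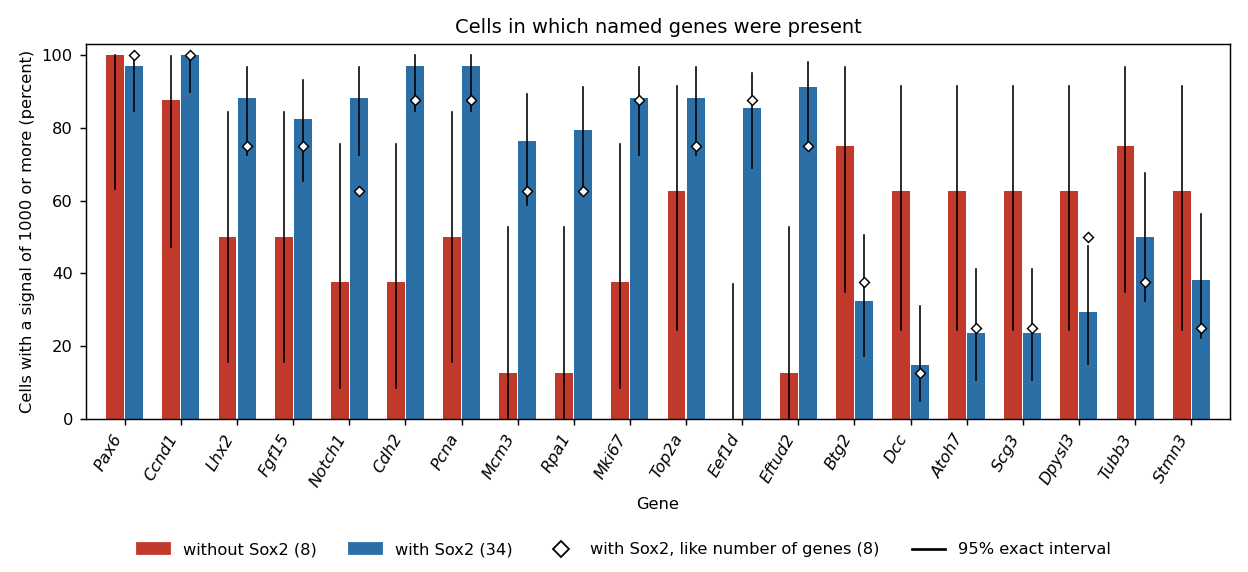
Percent of cells in which each of 20 named genes was present, in the 8 cells without Sox2 and the 34 cells with Sox2 (bars from 0, with exact 95% intervals that cover counting error only); diamonds are the 8 cells with Sox2 of like number of genes. Mcm3, Rpa1, Eef1d and Eftud2 were present in at most 1 of 8 cells without Sox2, and Btg2 in 6 of 8.

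The other 5 genes called higher at a signal of 1000 were Kmt2d, Plekhh1, Traf4, Sema3f and Dcc. Dcc, the netrin receptor of growing axons, was present in E12.5 cell E5 at 6176, E16.5 cells D6 at 5705, E3 at 18652 and E5 at 1040, and P0 cell C5 at 12106. It was present in 5 of 34 cells with Sox2 (highest 10525) and in 1 of the 8 of like number of genes. The difference was 47.8 points (interval 12.3 to 73.0), and 31.6 points at equal numbers of genes. Sema3f, a secreted semaphorin that repels axons, was present in 4 of 8 and 2 of 34 cells, with signals of 16370 in E13.5 cell B3 and 9914 in E16.5 cell D5 against at most 1519 in the cells with Sox2. Plekhh1 was present in 5 of 8 and 6 of 34 cells, led by E16.5 cells D5 at 38434 and E5 at 18938. Kmt2d, a histone methyltransferase of enhancers, and Traf4, an adapter of receptor signaling, were also present in 5 of 8 and 6 of 34 cells, but with lower signals. At equal numbers of genes the Kmt2d difference was 9.56 points and that of Traf4 was 0. All 6 calls depended on which cells were included. When each cell without Sox2 was left out in turn, Btg2 was still called in 2 of 8 cases, Kmt2d, Plekhh1, Traf4 and Dcc in 3 and Sema3f in 4. The Dcc difference with stage weights was 29.3 points without P0 cell C5 and 31.3 points without E12.5 cell E5.

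Among the genes called lower, Eef1d and Eftud2 had the largest differences after Sox2 itself. Of the 34 cells with Sox2, 29 for Eef1d and 27 for Eftud2 had a signal above every cell without Sox2. The signals of the remaining cells with Sox2 did not, and for Eftud2 1 of them lay below every cell without Sox2. Eef1d, a subunit of the elongation factor that recharges the carrier of aminoacyl-tRNA, had signals of 52.9 to 839 in the 8 cells without Sox2 and was present in 29 of 34 cells with Sox2 (81.9 to 95188, median 7824). The difference was -85.3 points (interval -93.6 to -49.4), it was -67.6 points at equal numbers of genes, and Eef1d was present in 7 of the 8 cells with Sox2 of like number of genes. Eftud2, a GTPase of the spliceosome, was present in 1 of 8 cells without Sox2, E16.5 cell D6 at 2455, and in 31 of 34 cells with Sox2, with a median of 8814. Its difference was -78.7 points, and -76.5 points at equal numbers. Cirbp, an RNA-binding protein induced by cold, was at most 162 in the cells without Sox2 and was present in 25 of 34 cells with Sox2 (-73.5 points, and -44.1 and -38.5 points at equal numbers, not a call). The next genes, ranked by the smaller of the plain and stage-weighted differences, were Cdip1, Prkacb, Rbbp6, Npc2, Sptssa, Dtx4, Immt, Psma7 and Nectin3, each present in at most 1 of 8 cells without Sox2 and in 24 to 29 of 34 cells with Sox2. At equal numbers of genes Cdip1 (-23.5 points), Prkacb (-26.5 points), Rbbp6 (-35.3 points) and Nectin3 (-37.5 points) were not called, whereas the other 5 were (-61.8 to -50.0 points). Immt, of the mitochondrial inner membrane, was present in 0 of 8 and 24 of 34 cells, but in only 1 of the 8 cells with Sox2 of like number of genes. Psma7, a subunit of the proteasome, was present in 1 of 8 cells without Sox2, in 28 of 34 cells with Sox2 and in 3 of the 8 of like number of genes.

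Apart from Sox2, 47 genes were lower both at a signal of 1000 and at equal numbers of genes. A few of them are described here, chosen after their values were seen. Mdh1, the cytosolic malate dehydrogenase, was present in E12.5 cell E5, E16.5 cell D6 and P0 cell C5 and below 1000 in the other 5 cells without Sox2, whereas its signal was 1564 or more in every cell with Sox2. Sdha, of succinate dehydrogenase, was present in 2 of 8 and 31 of 34 cells, Vdac3, a channel of the outer mitochondrial membrane, in 2 of 8 and 31 of 34, and Timm23, of the import machinery of the inner membrane, in 1 of 8 and 26 of 34. Zfp36l1, which destabilizes mRNAs, Srsf6, a splicing factor, and Eif3i, of translation initiation, were each present in 4 of 8 cells without Sox2 and in 34 of 34 cells with Sox2, as well as in 8 of 8 of those of like number of genes. Of 21 compared housekeeping genes, 1 (Sdha) was called lower (4.76%, beside 7.12% of all genes) and 0 higher. At equal numbers 1 of 20 was lower, beside 1.46% of all genes. The share of the 22 measured genes present was 50.0 to 86.4% (median 75.0%) in the cells without Sox2 and 50.0 to 90.9% (median 81.8%) in the cells with Sox2. The lowest share in the cells without Sox2 was that of E13.5 cell A6.

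The 8 cells differed in which neuronal genes they held. E13.5 cell B3 had the highest Insm1 and Neurod1 signals of all 42 cells, 47753 and 34725. Insm1 is a zinc finger factor of neurogenic divisions. The same cell had 25362 for Atoh7, 12314 for Neurog2 and 18717 for Elavl2, an RNA-binding protein of neurons. It lacked Tubb3 (32.5) and had Pcna at 45285, Top2a at 33909 and 63.0% of the G2 and M phase genes. E12.5 cell E5 was the opposite in its cycle genes, with Ccnd1 at 191 and Pcna at 23.9, and its leading neuronal genes were Tubb3 at 36944, Ncam1 at 25786, Hes6 at 24232 and Uchl1 at 20914. E16.5 cell D6 had the largest share of pan-neuronal genes of the 8 cells, 48.8%, and of bHLH genes, 44.4%, beside Pax6, Ccnd1, Lhx2, Fgf15 and Pcna, with Tubb3 at 35859, Tagln3 at 28523, Neurog2 at 11576 and Tfap2b, an amacrine cell factor, at 8329.

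Both E13.5 cell A6 and P0 cell C5 had neuronal genes beside some cycle genes, and E13.5 cell A6 had fewer of the latter. E13.5 cell A6 had the highest signals of all 42 cells for Nefm, the medium neurofilament, at 375175, Dcx, doublecortin of migrating neurons, at 158739 and Dpysl3 at 104064. Ccna2 at 177436 and Ccnd1 at 195597 were present in the same cell, but Pcna and Mki67 were below 1000. This cell had 21.1% of the G1 and S phase genes and 31.5% of the G2 and M phase genes. The medians of the cells with Sox2 were 55.3% and 64.8%. With its raised control level divided out, this cell was still at rank 1 of 42 for Nefm and Dcx, and at rank 2 for Dpysl3, 5 for Ccna2 and 26 for Ccnd1. P0 cell C5 had the highest Tfap2b signal, 20844 (rank 2 after that scaling), with Kif5c, a neuronal kinesin, at 18521 and Insm1 at 12698, beside Mki67 at 50407, Pcna at 81865 and 64.8% of the G2 and M phase genes.

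The other 3 cells of E16.5 shared cytoskeletal genes of neurons but differed in genes of G1 and S phase. Of these genes, 17.5% were present in cell D5, 43.9% in E3 and 15.8% in E5. Each of the 3 cells had 22.2% of the G2 and M phase genes, and Mki67 was present in D5 and E3. E16.5 cell D5 led all cells in Sncg, a synuclein of ganglion cells, at 90542, and Uchl1 at 75542, and also had the highest share of ganglion cell genes of the 8 cells, 33.3%. E16.5 cell E5 led all cells in Tubb3 at 143050, Gng3, a neuronal G protein subunit, at 137580, Stmn3, a stathmin, at 137211, and Hes6, a bHLH factor that opposes Hes1, at 77880. The same cell had Hes1 at 83362, while Hes1 was at most 479 in the other 7. Its control level was the second highest, and with this divided out it was still at rank 1 of 42 for Gng3 and Hes1, and at rank 2 for Stmn3 and 4 for Tubb3 and Hes6. E16.5 cell E3 led all cells in Crmp1 at 53299, Stmn2 at 44105 and Tcf12 at 42003 (rank 2 of 42 for each after that scaling), and was at the same time one of the cells with Notch1, Lhx2, Fgf15, Pcna and Mki67. High signals of neuronal genes and genes of cycling RPCs were thus found in several of the same profiles, and which of them were combined differed from cell to cell. This was not particular to the cells without Sox2, for which alone the leading neuronal genes were picked. With Sox2, P0 cell C1 had 76.7% of the pan-neuronal and 70.4% of the G2 and M phase genes, and P0 cell B6 had 69.8% and 81.5%.

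**Figure D4:**
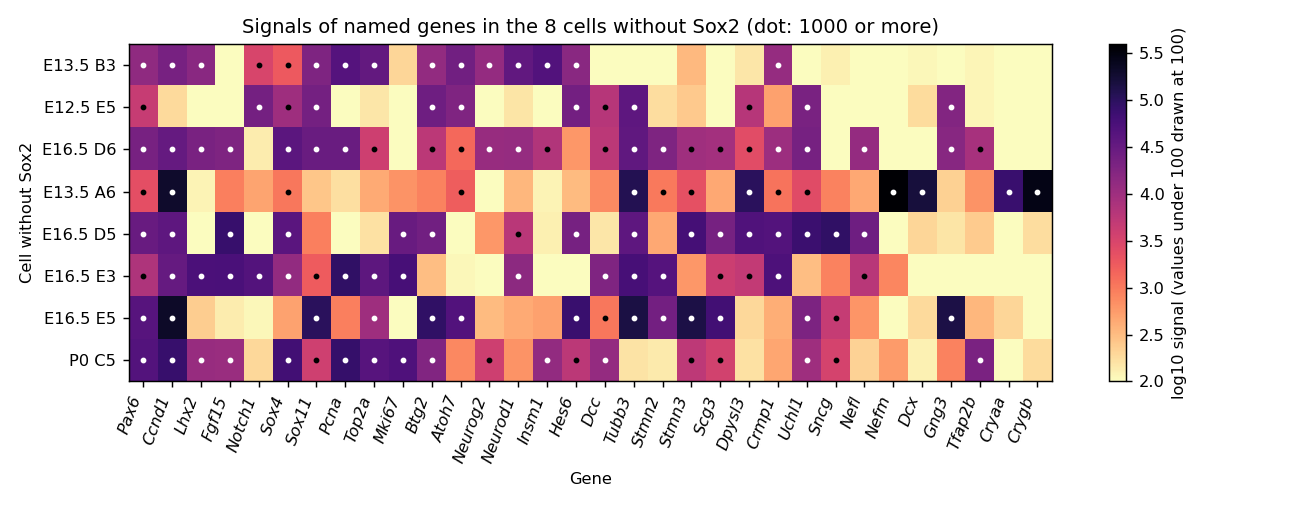
Signals of 32 named genes (columns; log10 of the linear signal, with values under 100 drawn at 100) in the 8 cells without Sox2 (rows, from the lowest to the highest Sox2 signal); dots mark signals of 1000 or more. Pax6 is marked in all 8 rows and Ccnd1 in 7, whereas the neuronal genes on the right differ between rows, and Nefm, Dcx and the crystallins Cryaa and Crygb are marked only in E13.5 cell A6.

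Within E16.5, the stage with most cells without Sox2, the comparison rested on few cells. The 4 cells without Sox2 had 1386 to 2644 genes present, against 2555 and 3367 in F5 and F4, the cells with Sox2 of the usual array pattern, and 3217 to 5253 in the 5 others. The G2 and M phase share was 22.2 to 24.1% in the 4 cells and 53.7% in both F4 and F5. The G1 and S phase share was 15.8 to 43.9% in the 4 cells and 35.1 and 71.9% in the 2. Scg3 was present in 4 of 4 and 0 of 2 cells, Nefl, the light neurofilament, in 3 of 4 and 0 of 2, and Btg2 in 3 of 4 and 1 of 2. Other neuronal genes went the other way. Stmn2, Crmp1 and Uchl1 were each present in 3 of 4 and 2 of 2 cells, and Tagln3 and Gng3 in 2 of 4 and 2 of 2. The pan-neuronal share was 23.3 to 48.8% in the 4 cells and 20.9 and 62.8% in the 2, so that it overlapped.

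Markers of lens and other tissues were most frequent in E13.5 cell A6 among the cells without Sox2. E13.5 cell A6 had 47.4% of 19 lens genes present, with Crygb, a crystallin, at 282642 and Cryaa at 78457, and 18.8% of 48 immunoglobulin, keratin and muscle genes, which should be silent in retina. In the other 7 cells without Sox2 the lens share was 0% and the immunoglobulin, keratin and muscle share was 0 to 4.17%. In the cells with Sox2 the highest values were 68.4% for lens, in E14.5 cell D7, and 22.9% for the second list. Microglia genes were at 0 to 18.8% and pigment epithelium genes at 0 to 21.4% in the cells without Sox2, with the highest share of both in E13.5 cell A6, and at 0 to 6.25% and 0 to 21.4% in the cells with Sox2. Of 10 blood genes, 10 to 40% were present in the cells without Sox2 and 10 to 70% in the cells with Sox2. The hemoglobin gene Hba-a2 was present in 7 of 8 cells without Sox2 (median 54845 over the 8) and in 34 of 34 cells with Sox2 (median 37234). Endothelial genes were at 20.0% in E13.5 cell A6, 13.3% in E16.5 cell E5 and at most 6.67% in the other 6 cells without Sox2, against 0 to 26.7% in the cells with Sox2. Without E13.5 cell A6 and E16.5 cell F1, 636 genes were called lower and 7 higher. The part of such signals in the values of E13.5 cell A6 was not tested. Immediate early and heat shock genes, which can respond to dissociation, were at 11.4 to 37.1% (median 22.9%) in the cells without Sox2. In the cells with Sox2 they were at 20.0 to 57.1% (median 27.1%). Of 23 compared genes, 3 were called lower (13.0%, beside 7.12% of all genes) and 1, Btg2, higher (0.0715% of all genes were). At equal numbers 0 of 16 were lower and 1 higher, beside 1.46% and 0.64% of all genes. Of genes of p53 and apoptosis, 1 of 23 was called lower (Bcl2, 4.35%, beside 7.12% of all genes) and 0 higher.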

How the data were processed

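Single cell profiles of 42 cells from dissociated retinas were used. The deposited values are linear signal intensity values, which the authors made with the Affymetrix MAS 5.0 algorithm from 1 array per cell. No reads or counts underlie them, so that the number of arrays limits the precision. After 35 cycles of PCR a low signal can come from a transcript lost before amplification. Of 45101 probe sets, 34958 carried 1 gene symbol in the platform annotation, 932 several and 9211 none, and only those with 1 symbol were used (34754 matched to RefSeq GRCm38.p6 by gene ID). The value of a gene was the highest signal of its probe sets, for 18194 genes.

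A gene was present in a cell at a signal of 1000 or more. Genes present in at least 4 of 42 cells were compared as the percent of cells without Sox2 minus the percent of cells with Sox2, plainly and with Mantel-Haenszel weights over 4 stage strata (E12.5, E13.5 to E15.5, E16.5 and P0). A call needed 40 points in both. No p-value was computed, because cells of unnamed animals are not replicates and the groups were chosen on a measured signal. The comparison was tested on simulated data in which each gene, apart from those changed, had the same share in all cells. Differences in stage or in number of genes were not simulated, so that the test does not bear on them. Levels, probe set summaries, cell sets, stage weights, equal numbers of genes and scaling to the hybridization controls were tried as alternatives, of which those on number of genes (other than the 2000 highest), E13.5 cell A6 with E16.5 cell F1, and scaling were chosen after seeing the data. The 26 gene lists, the members and the rules were chosen with earlier results of these data known. The genes named are 16 fixed genes, the 12 most different called genes in each direction, 3 genes of each list and the 4 highest neuronal genes of each cell. Other named genes (among them Sox2ot, Atoh7, Neurog2, Tubb3, Mki67, Top2a, Pcna, Cdk1, Ccna2, Gadd45a, Six6 and the metabolic genes lower in both readings) were chosen after their values were seen. Python 3.11.15, pandas 2.3.3, numpy 2.4.6, scipy 1.17.1 and matplotlib 3.10.9 were used.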

Additional observations from a re-analysis of the deposited data

Results flagged for a closer look

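Among the 8 cells without Sox2, 165 quantities (list shares and log2 signals of named genes) were checked for a cell far from the other 7, as the gap to the nearest cell divided by the whole range, with a critical value of 0.526. A total of 19 exceeded the value. The usual chance rate of 1 in 20 groups, 8.25 of 165, cannot be set against this count. Many of the genes were named for their values in these same cells, and the quantities are not independent. E13.5 cell A6 accounted for 13 of them. Its shares of list genes stood apart for pigment epithelium (gap ratio 1), lens (1), immunoglobulin, keratin and muscle (0.778), blood (0.667), microglia (0.667) and mesenchyme (0.667). The same cell had the highest log2 signals of Dcx (0.878), Crygb (0.768), Crygd (0.728), Eng (0.656), Cryaa (0.649), Acta2 (0.576) and Dusp6 (0.547).

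E12.5 cell E5 had the lowest Ccnd1 signal (0.676) and the highest signals of Tcf3 (0.629) and Sox13 (0.594). E16.5 cell E5 had the highest Hes1 signal (0.642) and the lowest signal of the hemoglobin gene Hba-a2 (0.762). E16.5 cell E3 had the highest signal of Npc2 (0.611).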

How the results depend on the processing

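No paired analysis was possible because the cells carry no shared replicate numbers and no test was made. Of 230 values of the counts, list differences and number of genes, 188 stayed within a set limit, 33 moved and 9 changed sign. The limit was a fixed factor for the counts and the SD of the cells without Sox2 for the others. The 230 values include those with each cell without Sox2 left out in turn, which change little in the data. The 6 genes called higher became 26 at a level of 5000, 79 with the 2000 highest genes of each cell, 74 without the transitional cells and 59 in E16.5 alone. The 597 called lower became 273 at 2000, 37 at 5000, 102 with the 2000 highest genes, 363 with the mean of the probe sets and 1316 in E16.5 alone. In alternatives chosen after seeing the data, 28 were higher and 64 lower with the 1386 highest genes, 14 and 293 against cells with Sox2 in the range of genes present of the cells without, 35 and 179 against those of like number of genes, and 0 and 743 with signals scaled to equal control levels, where progenitor factors were at -28.8 points and cell cycle exit at -12.0. Leaving out each cell without Sox2 gave 2 to 9 higher and 563 to 701 lower.

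The list differences, in points, moved as follows. Progenitor factors were at -3.85 (level of 5000), 0 (2000 highest), -1.92 (1386 highest) and -9.62 (like number of genes). G1 and S phase was at -12.3 both at 5000 and with the 1386 highest, and G2 and M phase at -13.0 in both, -18.5 with the 2000 highest and -18.8 with stage weights. Cell cycle exit was at -14.0 at 500 and turned to 4.0 at 5000 and 2.0 with the 2000 or 1386 highest. Neurogenic bHLH genes turned to 8.33 at 500, at 5000 and with the 2000 highest, to 11.1 without the transitional cells and to 5.56 with the 1386 highest, and ganglion cell genes to -0.179 with stage weights. Without each cell in turn the ranges were -19.2 to -19.2 (progenitor factors), -34.2 to -23.7 (G1 and S phase), -42.6 to -40.7 (G2 and M phase), -8.0 to -4.0 (exit), -5.56 to 0 (bHLH), 5.81 to 10.5 (pan-neuronal) and 11.1 to 16.7 (ganglion cell). The median number of genes present differed by -55.5 at 5000, -2289 in E16.5 alone and -351.5 against the cells of like number of genes (-1077.5 to -1062.5 without each cell), and has no value where the number is held equal. Traf4 turned to -2.94 points at 5000. The causes were not tested.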
